A study of Arabidopsis thaliana with 19 samples.

Results

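AT2G20670, AT3G07350 and AT1G12030 encode proteins with the plant domain DUF506 and were followed through an autopolyploid series of Arabidopsis thaliana, in which every genome copy comes from the same species. Each has 1 probe set on the Affymetrix ATH1 array (265387_at, 259015_at and 257421_at), so the set is 3 of the 22746 probe sets tested. They were chosen by their measured values, as family members that stood higher in polyploid than in diploid seedlings. Differences from the diploids are therefore a description below, with intervals from limma as a measure of their spread, and they support nothing. The genes lie on chromosomes 2, 3 and 1.

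DUF506 proteins are found in land plants and share a fold related to restriction-type nucleases, while the function of most of them is unknown. In Arabidopsis, members named RXR, for repressor of excessive root hair growth, limit the length of root hairs. The roles of the 3 genes described here are not assigned, so they are ordered by how their levels were distributed over the groups. The reference files used here held no protein or promoter sequences, and none is printed.

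The study measured single seedlings, 2 weeks old and kept in a growth chamber on Murashige and Skoog medium, with 1 array per seedling as the biological replicate. The groups were 5 triploids with an excess of maternal genomes, 3x(m), 5 triploids with an excess of paternal genomes, 3x(p), 5 tetraploids, 4x, and 4 diploids, 2x. The labels give the ploidy and the parent of the extra genome, and name no strain, line or cross. Both triploids have 3 genome copies, and whatever else differs between the reciprocal crosses cannot be told apart from the origin of the extra copy. The deposited values are log2 expression levels that were brought to a common distribution on every array, with array medians between 5.80 and 5.89. They give a transcript's share of the whole, not its amount per cell, and because the RNA came from mixed cells, fewer cells of a type and less RNA per cell cannot be told apart. PYK10, a root beta-glucosidase, was bright in every group, with means of 12.44 in 3x(m), 12.43 in 3x(p), 12.58 in 4x and 12.36 in 2x. AT4G25980, the other root marker with a named probe set, was dim, with means of 3.21, 3.29, 3.20 and 3.27 in the same order. The presence of roots is therefore not read from these values. In seedling 3x(m) 4 the genes of chromosome 4 stood higher by a median of 0.125, and none of the 3 genes lies on that chromosome.

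AT2G20670 stood higher in every polyploid seedling than in any diploid, whichever parent gave the extra genome. Its log2 values were 8.71, 9.42, 8.86, 8.46 and 8.31 in 3x(m), 9.74, 9.57, 9.88, 9.51 and 8.86 in 3x(p), 9.59, 9.30, 8.25, 9.42 and 8.79 in 4x, against 6.63, 6.84, 6.35 and 7.61 in 2x. The lowest polyploid value, in a tetraploid, lay 0.64 above the highest diploid, so the groups did not overlap. The polyploid groups did overlap with each other. How many of all probe sets separated groups in this way was not counted, here or for the genes below. The group means were 8.75 ± 0.43 in 3x(m), 9.51 ± 0.39 in 3x(p) and 9.07 ± 0.54 in 4x, against 6.86 ± 0.54 in 2x (SD, n = 5, 5, 5 and 4). The difference from 2x corresponded to 3.72-fold in 3x(m) (95% interval from 2.43 to 5.70), 6.30-fold in 3x(p) (4.11 to 9.66) and 4.63-fold in 4x (3.02 to 7.10).

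AT3G07350 had the same distribution with a wider diploid spread. Its values were 9.34, 9.81, 9.15, 9.10 and 9.17 in 3x(m), 10.37, 10.16, 9.90, 9.81 and 8.84 in 3x(p), 9.40, 9.94, 9.43, 9.71 and 9.43 in 4x, against 6.96, 8.08, 8.14 and 8.77 in 2x. All polyploid seedlings again lay above all diploids, but the margin between the lowest 3x(p) seedling and the highest diploid was 0.06. Group means were 9.32 ± 0.29 in 3x(m), 9.82 ± 0.59 in 3x(p) and 9.58 ± 0.24 in 4x, against 7.99 ± 0.75 in 2x (SD, n = 5, 5, 5 and 4). The fold over 2x was 2.51 in 3x(m) (95% interval from 1.61 to 3.89), 3.54 in 3x(p) (2.28 to 5.51) and 3.01 in 4x (1.94 to 4.68). Seedling 2x 1 was the lowest diploid, and without it the differences were smaller, at 0.98 in 3x(m), 1.48 in 3x(p) and 1.25 in 4x on the log2 scale.

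AT1G12030 followed another course, in which the tetraploids stood apart and the triploids overlapped the diploids, so that "raised in polyploids" was not shown for the triploids. Its values were 6.64, 7.60, 6.23, 6.81 and 6.44 in 3x(m), 7.66, 7.63, 7.03, 7.07 and 5.62 in 3x(p), 8.44, 8.38, 8.46, 8.17 and 8.54 in 4x, against 5.97, 6.71, 6.59 and 7.06 in 2x. Every tetraploid lay above every other seedling, by 1.11 over the highest diploid, by 0.56 over the highest 3x(m) and by 0.51 over the highest 3x(p). The share of all probe sets with such a separation was not counted, so how unusual it is cannot be said. Both triploid groups overlapped the diploids, and the lowest value of all belonged to seedling 3x(p) 5. The tetraploid level was 8.40 with an SD of 0.14, the smallest spread of the 4 groups, and the means were 6.74 ± 0.53 in 3x(m) and 7.001 ± 0.83 in 3x(p), against 6.58 ± 0.45 in 2x (SD, n = 5, 5, 5 and 4). The 4x level was 3.52-fold that of 2x (95% interval from 2.15 to 5.75). The triploids differed from 2x by 0.16 in 3x(m) (interval from −0.55 to 0.87) and by 0.42 in 3x(p) (−0.29 to 1.13), intervals that leave room for a rise as well as for none. Single seedlings moved these values: 3x(p) minus 2x was 0.76 without 3x(p) 5, 0.25 without 3x(p) 1, 0.26 without 3x(p) 2 and 0.21 without 2x 1, and 3x(m) minus 2x was −0.05 without 3x(m) 2 and −0.04 without 2x 1. In 3x(p), 3 of 5 seedlings lay above every diploid and 1 lay below every diploid.

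**Figure D1:**
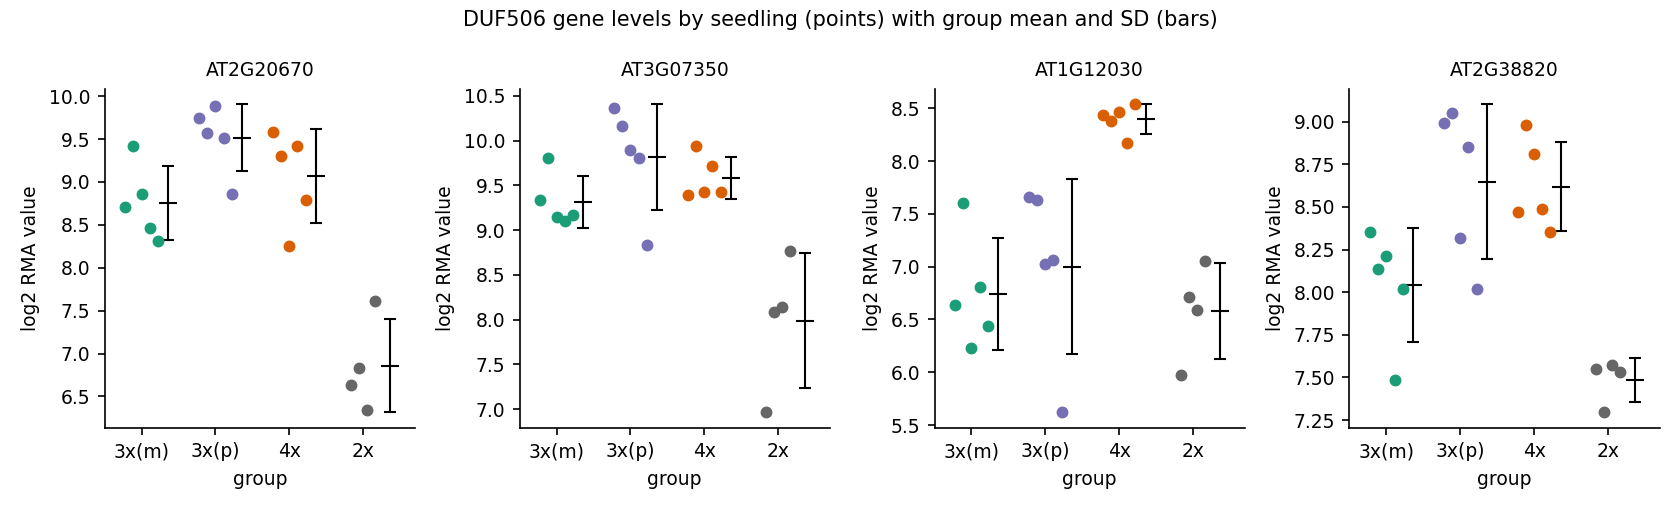
Log2 RMA value (vertical axis) of AT2G20670, AT3G07350, AT1G12030 and the further family gene AT2G38820 in each seedling (points), by group, with the group mean and SD as black bars; the vertical axes differ and do not start at 0. For AT2G20670 and AT3G07350 all polyploid points lie above the diploids, whereas for AT1G12030 the 5 tetraploids, at 8.17 to 8.54, stand above all others.

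The threshold applied to all probe sets (limma, adjusted p under 0.05) was passed by 3 of the 3 genes in 4x, by 2 in 3x(p) and by 1 in 3x(m), where 0.563%, 0.774% and 0.0352% of all probe sets were called higher. AT2G20670 is in all of these counts, AT3G07350 in 4x and 3x(p), and AT1G12030 in 4x. The genes were selected on these very differences, so the counts are no test of them and nothing is read from them. The 3 comparisons share the same 4 diploid seedlings.

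The contrasts between polyploid groups were not themselves used in the choice, but polyploid levels entered it through the differences from 2x. AT1G12030 was called against 2x in 4x alone, and the same high 4x values are a side of its contrasts with 4x. Its results in those contrasts are therefore not independent of the choice. None of the 3 genes passed the test between any polyploid groups. There limma called 0.0044% of all probe sets for 3x(p) minus 3x(m), 0.0747% for 3x(m) minus 4x and 0.022% for 3x(p) minus 4x. The nearest to passing was AT1G12030 in 3x(m) minus 4x, with a difference of −1.65 ± 0.319 (SE, limma, adjusted p = 0.0586) and no overlap between the groups. Because the groups did not overlap, its sign could not change when a seedling was left out, and a held sign adds nothing. The alternative with a fold of at least 1.5 used the same fit. Over the 28 alternatives adjusted p ran from 0.00227 to 0.199, and 6 passed. Among these were the fit of the compared groups alone (adjusted p = 0.0268), the one with array weights (0.0125), and those without seedling 3x(m) 2 (0.0315) or 3x(p) 5 (0.00517). In 3x(p) minus 4x the difference of AT1G12030 was −1.40 ± 0.319 (SE, limma, adjusted p = 0.293), again without overlap, and it passed in none of the 28 alternatives.

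For the other chosen genes the polyploid groups overlapped and no difference passed the test. In descending order AT2G20670 ran 3x(p), 4x, 3x(m), 2x, and the neighbours 3x(p) and 4x differed by 0.44 (95% interval from −0.14 to 1.02), 3x(m) and 4x by −0.32 (−0.90 to 0.26). Between the triploids it was 0.76 higher in 3x(p) (interval from 0.18 to 1.34, limma, adjusted p = 0.751). AT3G07350 had the same order, with 3x(p) minus 4x at 0.23 (−0.37 to 0.83), 3x(m) minus 4x at −0.27 (−0.87 to 0.33) and 3x(p) minus 3x(m) at 0.50 (−0.10 to 1.10). AT1G12030 ran 4x, 3x(p), 3x(m), 2x, and its triploid groups differed by 0.26 (−0.41 to 0.93). The intervals reached 2.53-fold for AT2G20670 and 2.14-fold for AT3G07350 between the triploids, so equal levels were not shown.

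**Figure D2:**
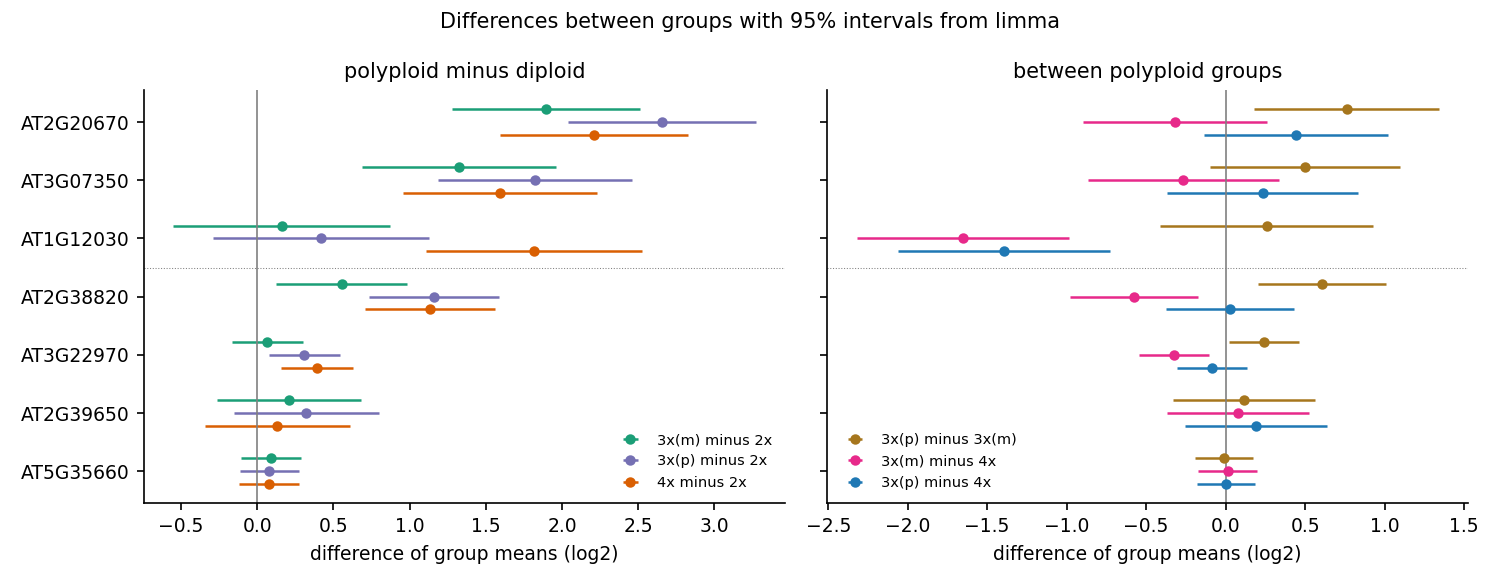
Difference of group means on the log2 scale (horizontal axis) for the 3 chosen genes (above the dotted line) and 4 further genes of the family list, with 95% intervals from limma; the left panel sets each polyploid group against 2x, the right panel sets polyploid groups against each other. On the right AT1G12030 lies apart, at −1.65 for 3x(m) minus 4x and −1.40 for 3x(p) minus 4x, and on the left the intervals of AT2G38820 lie above 0, lowest in 3x(m).

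The same contrast can be seen in the difference between 2 genes on the same array, which cancels a shift common to both values. The offset between probe sets has no meaning of its own, and what matters is how it changed between groups. AT3G07350 minus AT1G12030 averaged 2.57 ± 0.31 in 3x(m) and 2.81 ± 0.25 in 3x(p), but 1.19 ± 0.34 in 4x (SD, n = 5 each), and 1.41 ± 0.31 in the 4 diploids. It ranged from 2.20 to 2.92 in 3x(m) and from 2.53 to 3.22 in 3x(p), against 0.90 to 1.56 in 4x, without overlap. These differences were looked at because the levels of AT1G12030 had been seen to stand apart in 4x, so they are given as a description, with no test.

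AT2G20670 minus AT1G12030, which rests on the same AT1G12030 values, averaged 2.01 ± 0.38 in 3x(m) and 2.51 ± 0.54 in 3x(p), but 0.67 ± 0.63 in 4x (SD, n = 5 each), and 0.27 ± 0.42 in 2x. Here too no triploid seedling lay within the range of the tetraploids. AT2G20670 minus AT3G07350, by contrast, was −0.56 ± 0.23 in 3x(m), −0.30 ± 0.31 in 3x(p) and −0.51 ± 0.50 in 4x (SD, n = 5 each), and −1.13 ± 0.60 in 2x. In this difference the polyploid groups overlapped.

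**Figure D3:**
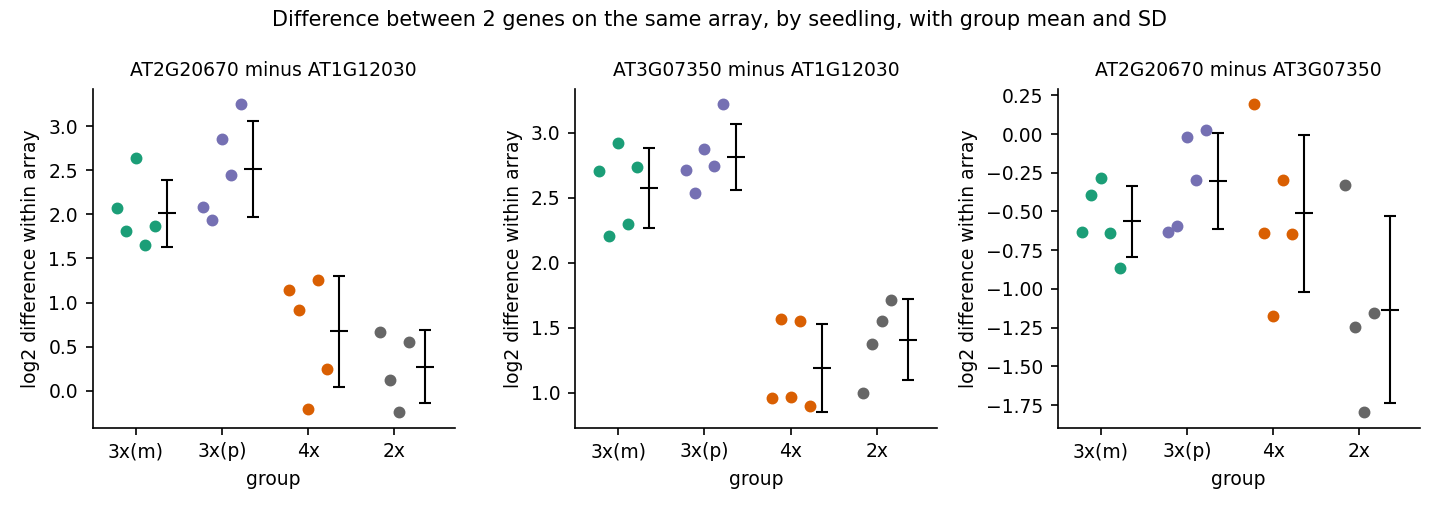
Log2 difference between 2 genes on the same array (vertical axis) for each seedling, by group, with the group mean and SD as black bars. In the panels with AT1G12030 the 3x(m) and 3x(p) points stand above the 4x points without overlap, and in the panel of AT2G20670 minus AT3G07350 the polyploid groups overlap.

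The 3 genes varied strongly between seedlings of the same group. Their residual SD around the group means was 0.477 for AT2G20670, 0.493 for AT3G07350 and 0.551 for AT1G12030, larger than that of 94.8%, 95.3% and 96.6% of all probe sets. In some seedlings all 3 genes lay on the same side of their group mean. All 3 lay below it in 2x 1, 3x(m) 5 and 3x(p) 5. All 3 lay above it in 2x 4, 3x(m) 2 and 3x(p) 1, 2 and 3. This makes 8 of 19 seedlings, with no tetraploid among them. The count that unrelated genes would give was not computed, so nothing is read from it. The deviations of 3x(p) 5 were −0.65, −0.98 and −1.38 in the order AT2G20670, AT3G07350, AT1G12030. The same seedling had the highest values of all 19 for the stress and handling genes WRKY53 (7.86) and STZ (7.58), and the part of this in its deviations was not tested.

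With the group means subtracted, which removes the differences that chose the genes, AT3G07350 and AT1G12030 were the most closely tied pair. Over 19 seedlings Pearson's r was 0.837 (permutation p = 0.000470, adjusted over the 3 pairs 0.00141) and Spearman's rho 0.575 (permutation p = 0.0199, adjusted 0.0376). Without 2x 1 and 3x(p) 5, the 2 seedlings farthest from the median deviation of AT3G07350, r was 0.667 (permutation p = 0.0116, not adjusted). AT2G20670 and AT3G07350 had r = 0.618 (permutation p = 0.00813, adjusted 0.0122) and rho = 0.553 (permutation p = 0.0250, adjusted 0.0376). Without 4x 3 and 2x 4, the 2 seedlings farthest from the median deviation of AT2G20670, r was 0.547 (permutation p = 0.0313, not adjusted). AT2G20670 and AT1G12030 had r = 0.523 (permutation p = 0.0197, adjusted 0.0197), whereas rho was 0.346 (permutation p = 0.169). Without 4x 3 and 2x 4 their r was 0.592 (permutation p = 0.0396, not adjusted). For these 2 pairs that omission kept 3x(p) 5 and 3x(m) 2. Both pairs with AT2G20670 lost their call, with r still positive, when 3x(p) 5 or 3x(m) 2 was left out. Without 3x(p) 5 their r was 0.521 with AT3G07350 and 0.376 with AT1G12030 (adjusted permutation p = 0.108 and 0.163), and without 3x(m) 2 it was 0.572 and 0.418 (adjusted permutation p = 0.0535 and 0.102). AT3G07350 and AT1G12030 kept r between 0.746 and 0.858 whichever seedling was left out. Their rank correlation was less steady, with rho = 0.439 in the 15 polyploid seedlings alone (adjusted permutation p = 0.199) and 0.452 with group medians subtracted in place of means (adjusted permutation p = 0.123).

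**Figure D4:**
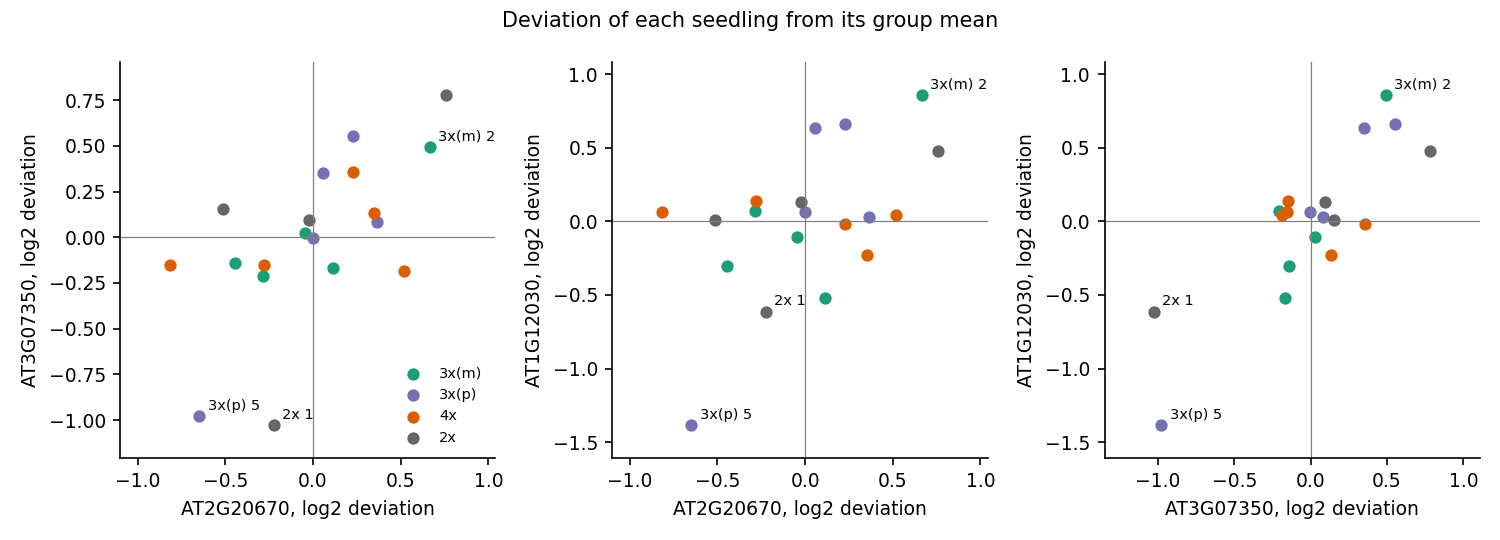
Log2 deviation of each seedling from the mean of its group for the 3 pairs of genes (axes), coloured by group, with seedlings 3x(p) 5, 3x(m) 2 and 2x 1 labelled. The points of AT3G07350 and AT1G12030 lie closest to a rising line (r = 0.837), with 3x(p) 5 at the lower end.

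A likeness search over the other 13355 single-gene probe sets put these ties in proportion, as a description over 19 seedlings with group means subtracted. AT3G07350 was the probe set ranked 6 in likeness to AT1G12030, and AT1G12030 was ranked 13 for AT3G07350, whereas AT2G20670 was ranked 288 for AT3G07350 and 660 for AT1G12030. Closest to AT2G20670 were AT2G37950 (r = 0.875), AT1G51400, a small photosystem II protein (0.870), AT5G19120, of the aspartyl protease family (0.868), AT4G12980 (0.848) and the MYB-related transcription factor gene AT5G47390 (0.833). Closest to AT3G07350 were AT2G27830 (r = 0.887), AT2G27290 (0.869), AT3G49790 (0.869), AT1G75460 (0.867) and AT5G60680 (0.863). Closest to AT1G12030 were AT5G44050, a transporter of the MATE family (r = 0.905), AT4G36530 (0.863), AT5G08430 (0.851), AT1G75770 (0.845) and AT1G20030 (0.839). Some of these genes also differed from 2x as the gene they resembled did, and others did not. AT5G19120 differed by 1.70 in 3x(m), 2.14 in 3x(p) and 2.11 in 4x, the direction of AT2G20670, and AT2G27830 by 1.32, 2.04 and 1.47 in the same order, the direction of AT3G07350. AT5G44050, by contrast, averaged 4.85 in 3x(m), 4.81 in 3x(p) and 4.76 in 4x, against 5.53 in 2x, the opposite direction to AT1G12030 in 4x.

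On the values as they are, with the group differences included, the order of likeness was another. AT2G20670 was then most like AT5G19120 (r = 0.956), AT3G46600, of the GRAS family (0.943), AT4G05070 (0.942), AT5G60680 (0.938) and AT5G24890 (0.932). AT3G07350 was most like AT5G60680 (0.952), AT2G27830 (0.945), AT4G05070 (0.943), AT5G24890 (0.928) and AT1G23390, a kelch-repeat F-box gene (0.914). The 2 lists share AT5G60680, AT4G05070 and AT5G24890. AT1G12030 was most like AT1G75770 (0.841), AT1G66800 (0.813), AT1G16170 (0.789), AT2G46220 (0.785) and AT5G25280 (0.779), none of which stands among the first 5 of the other genes. AT1G66800 averaged 3.75 in 3x(m), 3.99 in 3x(p) and 4.54 in 4x, against 3.71 in 2x. It was picked by values that include the group differences, so its highest level in the tetraploids is no separate observation. Its means outside 4x lay below 4.07, the level under which the dimmest 30% of probe sets lay. AT4G12980, AT4G36530 and AT4G05070 lie on chromosome 4, whose genes stood higher in 3x(m) 4, and the part of that seedling in their likeness was not tested.

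Of 14 loci listed as DUF506 genes, 7 had a named single-gene probe set, the 3 chosen genes and 4 others, and 7 had none in the annotation used. The list was written from general knowledge, and for AT5G35660 the place in the family is not certain. Among the 4 others AT2G38820 rose in the tetraploids and in the paternal-excess triploids. Its values were 8.35, 8.14, 8.21, 7.48 and 8.02 in 3x(m), 8.99, 9.05, 8.32, 8.85 and 8.02 in 3x(p), 8.47, 8.98, 8.81, 8.49 and 8.35 in 4x, against 7.55, 7.29, 7.57 and 7.53 in 2x. All 3x(p) and 4x seedlings lay above all diploids, and in 3x(m) the exception was seedling 4.

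AT2G38820 differed from 2x by 1.16 ± 0.204 in 3x(p) (SE, limma, adjusted p = 0.00674) and by 1.13 ± 0.204 in 4x (adjusted p = 0.0091), folds of 2.23 and 2.19. Both calls held in all 28 alternatives, with adjusted p up to 0.0436 in 3x(p) and 0.0325 in 4x. Of these, a fold of at least 1.5 used the same fit, and omitting a seedling of another group left the differences unchanged. In 3x(m) the difference was 0.55 ± 0.204 (limma, adjusted p = 0.999), and the difference between the triploids, 0.61 ± 0.192, did not pass either (limma, adjusted p = 0.704). The gene was not among those chosen for their values, but the family list was drawn up with earlier results of these data known. Its comparisons also share the diploid seedlings with those of the chosen genes, so its calls are not independent of theirs.

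The remaining genes of the list did not pass in any of the 6 comparisons. AT3G22970 averaged 5.91 ± 0.17 in 3x(m), 6.15 ± 0.10 in 3x(p) and 6.23 ± 0.20 in 4x, against 5.84 ± 0.19 in 2x (SD, n = 5, 5, 5 and 4), with 0.39 ± 0.112 in 4x minus 2x (SE, limma, adjusted p = 0.102). AT2G39650 averaged 6.20 ± 0.49 in 3x(m), 6.32 ± 0.34 in 3x(p) and 6.13 ± 0.30 in 4x, against 5.99 ± 0.25 in 2x, and its highest value, 7.03, belonged to 3x(m) 4. AT5G35660 was dim, with group means of 4.49 in 3x(m), 4.48 in 3x(p) and 4.48 in 4x, against 4.40 in 2x. Of the 4 genes outside the choice, 1 was called higher in 4x and 1 in 3x(p), and 0 in 3x(m), where it was 0.563%, 0.774% and 0.0352% of all probe sets. All 4 had positive differences in each comparison with 2x, and the share over all probe sets was not counted. The medians were 0.26 in 4x, 0.15 in 3x(m) and 0.32 in 3x(p), and over all probe sets within 0.01 of 0. The 3 comparisons share the same 4 diploids, and AT2G39650 and AT5G35660 had intervals across 0 in each. A rise of the family is therefore not read from the signs.

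Some genes that mark other states of a seedling stood higher in the same groups, and their part in the levels of the DUF506 genes was not tested. In a list of sugar-starvation genes, of which 2 of 23 had a named probe set, AT3G15450 was higher in 3x(p) by 3.38 ± 0.415 (SE, limma, adjusted p = 0.000274) and in 4x by 2.53 ± 0.415 (adjusted p = 0.00462). In 3x(m) it differed by 1.78 (limma, adjusted p = 0.327). AKINBETA1, for a subunit of the kinase SnRK1, differed by 0.16 in 3x(m), 0.56 in 3x(p) and 0.45 in 4x without passing. Of the touch and handling genes, 2 of 9 had a named probe set. STZ, a zinc finger transcription factor of stress responses, averaged 5.97 in 3x(m), 6.59 in 3x(p) and 5.29 in 4x, against 4.65 in 2x, and passed in 3x(p) (difference 1.94 ± 0.345, limma, adjusted p = 0.00757). WRKY53 averaged 5.35, 5.77 and 5.47 in these polyploid groups, against 4.06 in 2x, without passing.

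Among 12 root hair genes 3 had a named probe set, and XTH26, a wall-loosening enzyme of root hairs, passed in 4x. It differed from 2x by 0.18 in 3x(m), by 1.62 in 3x(p) and by 2.62 ± 0.523 in 4x (SE, limma, adjusted p = 0.0172). Its 3x(m) minus 4x difference of −2.45 did not pass (limma, adjusted p = 0.0732). The expansin genes EXPA7 and EXPA18 differed in 4x by 0.85 and 1.11 without passing. Of 6 other root markers 2 had a named probe set, and neither passed in 4x. PYK10 differed there by 0.22 (interval from 0.04 to 0.41, limma, adjusted p = 0.273), and AT4G25980 by −0.07 (−0.24 to 0.10). AT4G25980 was dim, with a mean of 3.24 over all seedlings, and PYK10 was brighter than 99.6% of probe sets. Whether the share of root differed between the groups was not tested. The clock gene GI, the only 1 of 12 clock genes with a named probe set, differed by 0.02 in 3x(m), −0.17 in 3x(p) and −0.36 in 4x. It did not pass.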

How the data were processed

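The deposited values are log2 expression levels per probe set, made by the authors with RMA per the submitters' processing notes, a method of background correction, quantile normalization and probe summary. Its version, the genome build and the scan dates are not given in the sources used here. RNA was extracted with Trizol and a column and labelled with a 3' IVT kit, per the labels' protocols. After removal of 64 control probe sets from 22810, the others were tested. Of all probe sets 13513 were paired with 1 gene by the platform annotation, with names updated through a TAIR10.1 gene table. Another 8794 were not listed in that annotation, so a locus without a named probe set may still be on the array. No missing value (0) was found.

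All 22746 probe sets were fitted in R 4.3.3 by limma 3.58.1, as group means of the 19 seedlings without a block, eBayes moderation and Benjamini-Hochberg adjustment over all probe sets, and called at an adjusted p under 0.05. The fit was tested on simulated data. Correlations used deviations from group means with 100000 permutations within groups (Python 3.11.15), and within-array differences are descriptions added after the data were seen. Of array data, the number of arrays limits the precision.

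The genes and the lists were chosen with earlier results of these data known. Named were the 3 genes, all genes of the family list with a single-gene probe set, the 5 probe sets most like each gene, and up to 4 genes of each other list. Where several probe sets belonged to a gene, the brightest was used. The alternatives were the compared groups alone, eBayes with trend and robust, omission of the dimmest 30%, 2 normalizations, array weights, a replicate block, a fold of at least 1.5 and omission of each seedling. Omission of 2x 1 together with 3x(p) 5, and of AT5G35660 from the list, was added after the data were seen.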

Additional observations from a re-analysis of the deposited data

Results flagged for a closer look

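In 6 of the 68 groups of values examined, 1 seedling stood farther from its group than Dixon's 95% limit, and chance gives about 1 in 20. None of the 6 concerns AT2G20670, AT3G07350 or AT1G12030. For AT2G38820 the lowest diploid, 2x 2, had 7.29, next to 7.53 in the nearest. AT5G35660, a dim probe set, had a lowest value of 4.32 in 3x(m), 4.28 in 3x(p) and 4.27 in 4x, each apart from the rest of its group. GI had a lowest 3x(p) value of 6.70 next to 7.12, and WRKY53 a highest 3x(p) value of 7.86, in seedling 3x(p) 5, next to 5.62.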

How the results depend on the processing

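The differences of AT2G20670, AT3G07350 and AT1G12030 from 2x moved by less than 1 residual SD (0.477, 0.493 and 0.551) in all 27 alternatives. Several of these cannot move a difference of means, such as omitting a seedling of another group or fitting the compared groups alone. The band was also wide enough to hold a change of sign, so the count is no measure of steadiness. AT2G20670 ranged over 1.68 to 2.15 in 3x(m), 2.41 to 2.91 in 3x(p) and 1.93 to 2.46 in 4x, AT3G07350 over 0.98 to 1.59, 1.48 to 2.09 and 1.25 to 1.85, and AT1G12030 over −0.08 to 0.32, 0.21 to 0.76 and 1.61 to 1.97. The small 3x(m) difference of AT1G12030 thus changed sign.

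AT1G12030 in 3x(m) minus 4x, at −1.65, passed with the compared groups alone, with the replicate block (−1.65, limma, adjusted p = 0.0472), without both 2x 1 and 3x(p) 5 (−1.65), and with array weights (−1.70). Leaving out single seedlings gave −1.87 to −1.52. The block changed no other call of the 3 genes. The labels give no pairing by replicate number. Deviations in the 27 same-numbered pairs had correlations from −0.38 to 0.43, and 12 were over 0.1. Of 19 seedlings, 6 were closest to one of their own number. Pairs with different numbers were not set beside these, so whether the numbers pair the seedlings was not settled. The covariation of AT2G20670 with AT3G07350 ranged over r = 0.508 to 0.690 and with AT1G12030 over 0.376 to 0.620 in the omissions.

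With array weights 2 of the 4 other family genes were called in 4x minus 2x instead of 1, the second being AT3G22970 (0.37, adjusted p = 0.0374). Leaving AT5G35660 out of the list changed no count. Genes of the other lists called numbered 1 instead of 2 in 4x minus 2x without both 2x 1 and 3x(p) 5, and 1 instead of 0 in 3x(m) minus 4x with array weights or the block, and under omissions 1 to 2 in 4x minus 2x and 0 to 1 in 3x(m) minus 2x and 3x(m) minus 4x.

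Differences near 0 that had not passed changed sign. AT2G39650 turned in 3x(m) minus 4x with array weights (−0.0488) and in 3x(p) minus 3x(m) without both seedlings (−0.0287), with omissions over −0.13 to 0.17 and −0.0287 to 0.32. AT3G22970 in 3x(m) minus 2x was −0.0224 without both, with omissions over −0.0224 to 0.12. AT5G35660 in 3x(p) minus 4x was −0.00313 with arrays centred on their median and −0.00143 without both, with omissions over −0.0488 to 0.0523, −0.0386 to 0.0554 in 3x(m) minus 4x and −0.0526 to 0.0392 between the triploids. AT2G38820 in 3x(p) minus 4x ranged over −0.0741 to 0.18, and AT2G20670 minus AT3G07350 in 3x(m) minus 4x over −0.22 to 0.13. Over all probe sets, the counts called ranged over 81 to 1017 in 4x minus 2x (218 in the fit used), 0 to 10 in 3x(m) minus 2x (8), 109 to 423 in 3x(p) minus 2x (262), 0 to 2 between the triploids (1), 11 to 45 in 3x(m) minus 4x (17) and 1 to 8 in 3x(p) minus 4x (5) in the settings other than omissions of 1 seedling. Omitting 1 seedling gave, in the same order of comparisons, 77 to 382, 1 to 17, 107 to 356, 1 to 4, 6 to 56 and 2 to 5, so the background shares moved by over 1.5 times with 1 array. The causes of these changes were not tested, and with 4 or 5 arrays a group small differences were beyond the precision.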
